A study of Mus musculus with 6 samples.

Results

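The ATP-binding cassette (ABC) transporters are membrane pumps that use ATP hydrolysis to move lipids, drugs, conjugates, peptides, metals or cyclic nucleotides across cell and organelle membranes. Class A and part of class G mainly carry lipids and sterols, classes B and C hold the multidrug pumps together with mitochondrial and channel-regulating members, and class D serves peroxisomes and lysosomes. Classes E and F have the ATPase domains but no membrane domain and work on ribosomes. In the ovarian follicle, cumulus cells are metabolically coupled to the oocyte and supply it with small molecules through gap junctions.

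The 48 genes described here were taken by symbol, as all genes named Abc with a class letter from a to g, a number and at most 1 further letter, out of 22180 genes with a probe set of their own on the array. The samples were mouse cumulus-oocyte complexes (COCs), each an immature oocyte with its enclosing cumulus cells. They formed a group of 3 samples cultured with Torin1 at 5 µM, a drug that blocks the MTOR kinase at its ATP site, and a group of 3 cultured with the vehicle DMSO. All mice were wildtype females primed with 5 IU of equine chorionic gonadotropin for 46 h, and the labels give their age as 21 days in one field and 23 days in another. Both groups were cultured at 100 COCs per group with 3 mg/ml albumin and with milrinone at 5 µM, which blocks the phosphodiesterase PDE3 and holds oocytes in meiotic arrest. The culture time is given as 14 h in one field and 16 h in another. Nothing in the labels says whether the 3 samples of a group came from separate mice or days, and if they did not, the p-values here cover technical spread alone.

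Levels are log2(intensity + 1) of the brightest probe set that names the gene alone, and a change is the Torin1 mean minus the DMSO mean on that scale, given with its standard error (SE). A gene is called higher or lower at an adjusted p below 0.05 in a limma fit over all genes with Benjamini-Hochberg adjustment. Torin1 sample 3 stood apart from the other 2 Torin1 samples: over all genes the SD of log2 differences was 0.327 and 0.350 against them, and 0.204 between those 2. Oocyte markers were present in every sample, and 13 of 13 had a change above 0, of which 1 was called. Their summed intensity was 5780 to 6340 in Torin1 samples and 5240 to 5560 in DMSO samples. Of 9 cumulus and granulosa markers, 8 were called lower and 1, Inhba, higher, with sums of 2270 to 2880 in Torin1 samples and 4240 to 4400 in DMSO samples. The part of this shift in the changes below was not tested, and in these mixed samples fewer cells of a type and less RNA per cell cannot be told apart. Theca marker sums were 78.5 to 92.4 in Torin1 samples and 74.1 to 82.5 in DMSO samples, with 1 of 3 markers, Star, called higher. Most of the theca sum was Nr5a1, with a mean intensity of 59.8 in Torin1 samples and 59.4 in DMSO samples. Cyp17a1 was at 6.33 and 6.09. Leukocyte marker sums were 67.9 to 73.5 in Torin1 samples and 58.2 to 63.7 in DMSO samples, with 1 of 6 markers, Cd68, called higher. The endothelial sum was 139 to 259 in Torin1 samples and 91.3 to 98.4 in DMSO samples, with 1 of 5 markers, Cdh5, called higher. The part of these lists was not tested either.

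With Torin1, 3 ABC genes rose and 6 fell. The rises were Abca1, a cholesterol and phospholipid exporter, Abcc1, an exporter of glutathione conjugates, and Abcf3, a translation-linked ATPase. The falls were Abcd2, a peroxisomal importer of very long chain acyl-CoA, Abca4, a retinoid and phospholipid flippase, Abca2, Abcc10, Abcc3 and the mitochondrial Abcb8. The largest change by size was that of Abcd2, 7.76-fold lower in Torin1 COCs on the log2(intensity + 1) scale, on which all folds here are given. The share called was 18.8% (9 of 48), beside 12.1% of all 22180 genes. It was 6.25% higher and 12.5% lower among ABC genes, beside 5.13% and 6.94% of all genes. The counts of calls in role groups and lists below are to be read beside these shares of all genes, and none was tested. The groups did not overlap in 16 ABC genes (33.3%), 4 higher and 12 lower with Torin1, beside 28.6% of all genes. The median change was 0.02 over the 48 genes and 0.01 over all genes.

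The level of a gene bears on these counts. Of the 48 ABC genes, 25 had a mean level above that of the median gene, 4.17, and all 9 calls lay among them (36.0%), beside 22.1% of the 11090 genes above it. The other 23 had changes of -0.66 to 0.19 and no call in limma, with 3 at an unadjusted p below 0.05. For these dim genes the log2(intensity + 1) scale understates a change. The plot of change against level shows both parts.

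**Figure D1:**
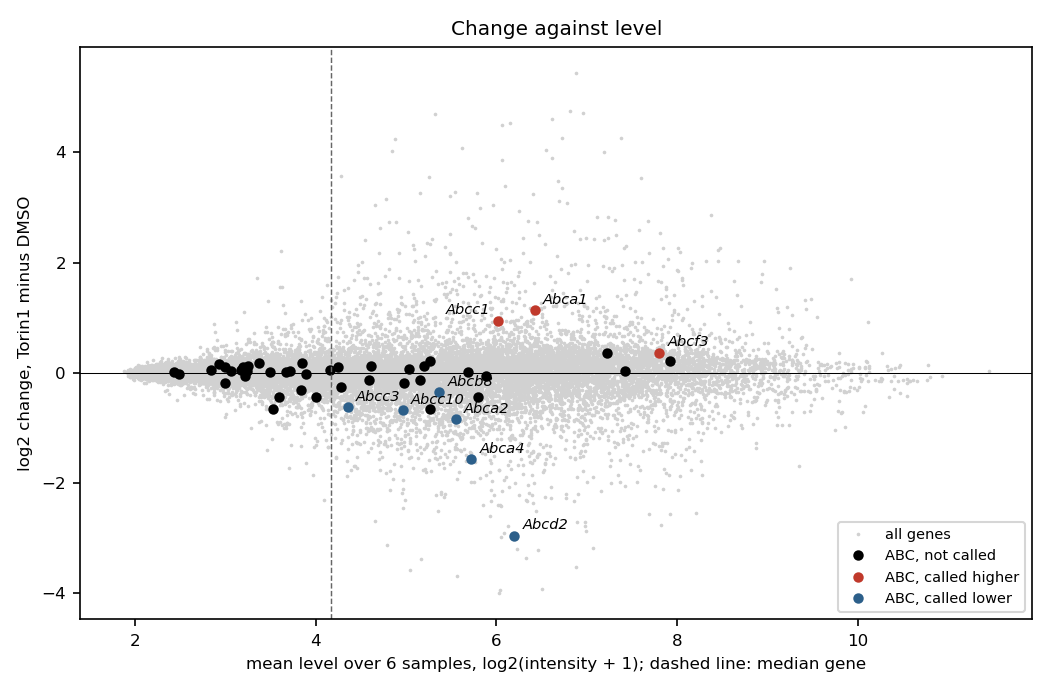
Change (log2 Torin1 minus DMSO, vertical) against mean level over the 6 samples (log2(intensity + 1), horizontal) for all 22180 genes in grey and the 48 ABC genes in colour. All 9 called ABC genes lie right of the dashed line, the median gene at 4.17, and Abcd2 is the lowest ABC point at -2.96.

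Sterol exporters differed among themselves. Abca1 loads cholesterol and phospholipid onto apolipoprotein A-I and is known as a target of the oxysterol receptors LXR. Its level (probe set 17425301, chromosome 4) was 6.65, 6.84 and 7.50 in Torin1 samples 1, 2 and 3, against 5.80, 5.80 and 5.98 in DMSO samples 1, 2 and 3. Every Torin1 sample was above every DMSO sample, and Torin1 sample 3 was the highest. The change was 1.14 ± 0.21 (SE; adjusted p = 0.0142 in limma), or 2.20-fold. Without Torin1 sample 3 it was 0.89 and still called (adjusted p = 0.00226), but the call was lost without DMSO sample 1 (adjusted p = 0.0555) or DMSO sample 2 (adjusted p = 0.0561). Abcg1, which passes cholesterol to high-density lipoprotein particles and is another known LXR target, was at 4.88, 5.14 and 5.15 in Torin1 samples, against 5.00, 4.87 and 5.13 in DMSO samples. Its values overlapped, and its change was 0.06 with a 95% confidence interval of -0.20 to 0.32 (adjusted p = 0.843). The interval of Abca1, 0.65 to 1.63, lies above that of Abcg1, and the difference between the genes was not tested. Abca7, a phospholipid transporter related to Abca1, changed by -0.26 (interval -0.62 to 0.10) and was not called. Abcg4, a relative of Abcg1, and Abcg5 and Abcg8, which together form the sterol exporter of liver and intestine, had changes of 0.02, -0.05 and 0.19. These 3 were at or below 4.17 on average over all samples and were not called. In all, 1 of 6 sterol exporters rose and none fell, with a median change of 0.04.

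Promoter sequence from RefSeq was at hand for 38 of the 48 genes and for 5 of the 9 called ones. The 250 bases before the annotated start are shown for Abca1, the sterol exporter that rose, and for Abca4, the most lowered gene with a sequence, as the contrast to it. Abca1 lies on the minus strand at chr4:53159896-53160145 and Abca4 on the plus strand at chr3:122044210-122044459 (build GRCm38.p6). Capitals in Abca1 mark an E-box (CACGTG) and the closest match to a DR4 element, the direct repeat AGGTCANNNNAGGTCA that LXR is known to bind.
Abca1: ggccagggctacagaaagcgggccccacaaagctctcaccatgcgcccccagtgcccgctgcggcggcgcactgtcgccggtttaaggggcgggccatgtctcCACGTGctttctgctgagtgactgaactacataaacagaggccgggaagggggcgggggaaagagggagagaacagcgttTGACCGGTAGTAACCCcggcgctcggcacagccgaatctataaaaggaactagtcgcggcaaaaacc
Abca4: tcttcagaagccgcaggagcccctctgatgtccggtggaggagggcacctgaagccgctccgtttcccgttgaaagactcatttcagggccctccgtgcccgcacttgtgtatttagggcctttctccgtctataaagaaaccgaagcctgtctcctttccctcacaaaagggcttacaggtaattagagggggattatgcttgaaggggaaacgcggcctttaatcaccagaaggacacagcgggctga
Both strands were searched from 250 bases before to 50 after the start. The E-box was in 7.15% of all 32851 windows and in those of Abca1, Abca15, Abca8a, Abca8b, Abcc4 and Abcf1. In Abca1 it lies 147 to 142 bases before the start. The exact DR4 element was in 0.0152% of windows and in no ABC window. The capitals at 67 to 52 bases before the start of Abca1 read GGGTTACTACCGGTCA on the other strand, with 3 mismatches to DR4. A match that close was in 21.9% of all windows and in 2 of 45 ABC windows, those of Abca1 and Abcc10. The cAMP response element TGACGTCA was in 1.79% of windows, among them Abce1 and Abcg2, and the CLEAR element GTCACGTGAC, which contains the E-box, was in 0.326% and in no ABC window. Neither Abce1 nor Abcg2 was called. Abca4 held none of these motifs.

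Among 14 measured LXR and sterol handling partners there were 2 falls and 1 rise, and their median change was -0.08. Lipa and Npc2, which free and pass on cholesterol in lysosomes, fell by 0.96 ± 0.16 and 0.48 ± 0.10 (SE; adjusted p = 0.0111 and 0.0194 in limma). Osbp, an oxysterol-binding protein, rose by 0.37 ± 0.09 (adjusted p = 0.0333). The other 11 were not called. Among them, Lpcat3, Mylip, Srebf1 and the LXR gene Nr1h3 had changes of -0.67, -0.24, -0.08 and -0.04, and Apoe of 0.30. The other LXR gene, Nr1h2, and Soat1 were listed but not measured. The groups did not overlap for Lpcat3, Mylip and Apoe. Nor did they for the uncalled Stard4, Nceh1 and Npc1, with changes of -0.88, -0.42 and 0.33. Among all genes the share without overlap was 28.6%.

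The other 14 class A genes included 2 falls and no rise, beside 6.94% of all genes called lower and 5.13% called higher. Abca4, best known from photoreceptors, where it clears retinoid adducts from disc membranes, was at 4.79, 4.69 and 5.33 in Torin1 samples, against 6.72, 6.36 and 6.44 in DMSO samples (probe set 17402222, chromosome 3). All 3 Torin1 samples lay at least 1 unit below all DMSO samples. Its change was -1.57 ± 0.18 (SE; adjusted p = 0.00247 in limma), a 2.97-fold lower level with Torin1, and it was called with any 1 sample left out. Abca2, an endolysosomal lipid transporter studied mostly in the nervous system, was at 5.28, 5.40 and 4.72 in Torin1 samples, against 5.85, 5.94 and 6.13 in DMSO samples (probe set 17368009, chromosome 2). It fell by 0.84 ± 0.18 (adjusted p = 0.0269), with Torin1 sample 3 the lowest. The call was lost without Torin1 sample 1 (adjusted p = 0.0546) or DMSO samples 1, 2 or 3 (adjusted p = 0.0625, 0.0793 and 0.102). Abca3, which packs surfactant lipid in the lung, had a like pattern, with 5.09, 5.20 and 4.53 in Torin1 samples and 5.47, 5.48 and 5.86 in DMSO samples. The groups did not overlap, but at -0.67 ± 0.19 it was not called (adjusted p = 0.0742).

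The remaining 11 genes of that set had changes of -0.45 to 0.17 and were not called. The dim Abca9 was lower with no overlap between groups, at -0.32 ± 0.13 (SE; adjusted p = 0.203 in limma). Abca6 was at 3.51, 3.38 and 4.45 in Torin1 samples, against 4.61, 4.02 and 4.05 in DMSO samples. Torin1 sample 3 alone reached the DMSO values, and without it Abca6 was called lower (adjusted p = 0.036). Abca5, Abca6, Abca8a, Abca8b and Abca9 are 5 direct neighbours on chromosome 11 in RefSeq order of protein-coding genes. Their changes ran from -0.45 to 0.13 with 0 called, and 1 of them, Abca5, was above the median gene. Abca14, Abca15 and Abca16, neighbours on chromosome 7, changed by 0.02 to 0.11 and were all dim. Related genes such as Abca8a and Abca8b can share signal, which was not tested, so their separate values are uncertain.

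**Figure D2:**
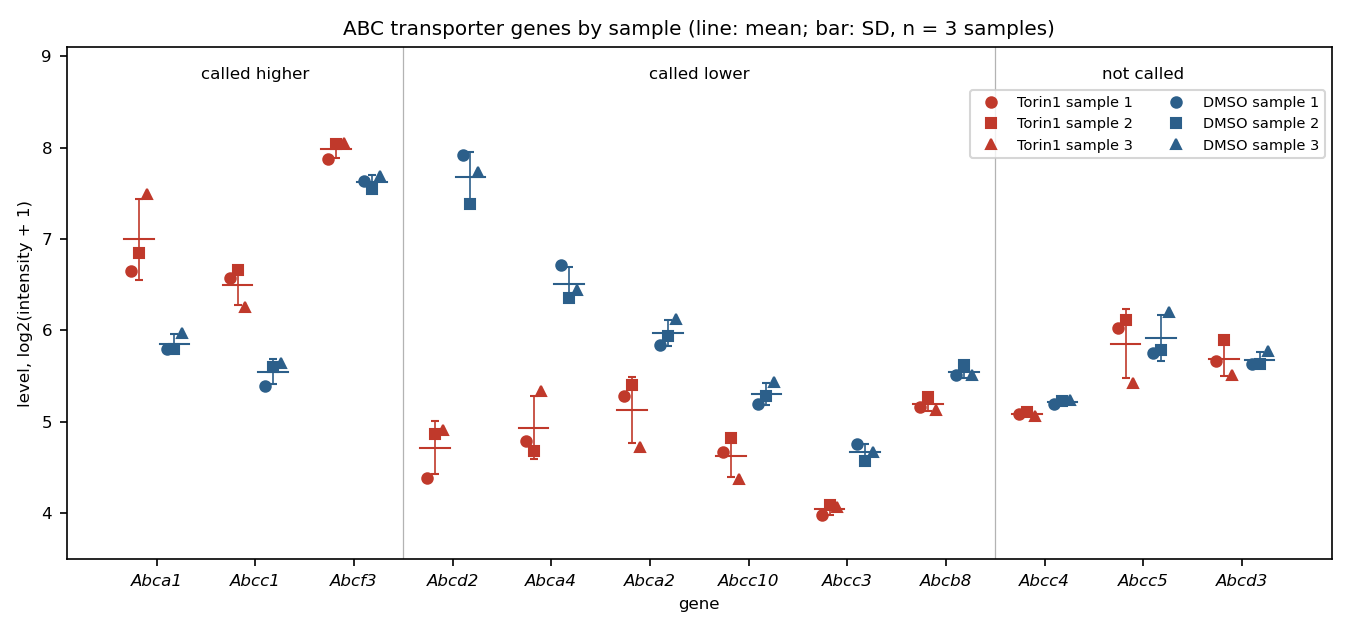
Level of 12 ABC genes (log2(intensity + 1), vertical) in each Torin1 sample (red) and DMSO sample (blue), with mean and SD of 3 samples. Abca1, Abcc1 and Abcf3 are higher with Torin1, the next 6 are lower with no overlap, and Abcc4, Abcc5 and Abcd3 were not called.

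Drug and conjugate pumps went both ways, with 1 of 8 higher and 2 lower. Abcc1 (MRP1) exports glutathione conjugates and leukotriene C4. Its level was 6.57, 6.66 and 6.25 in Torin1 samples, against 5.39, 5.60 and 5.65 in DMSO samples (probe set 17323138, chromosome 16). The groups were apart by more than the range within either. It rose by 0.95 ± 0.13 (SE; adjusted p = 0.0043 in limma), or 1.93-fold, and was called with any 1 sample left out.

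Abcc3 (MRP3) carries glucuronides and bile salts out across basolateral membranes. It was at 3.98, 4.09 and 4.07 in Torin1 samples, against 4.76, 4.57 and 4.67 in DMSO samples (probe set 17267846, chromosome 11). The spread within each group was small, and it fell by 0.62 ± 0.08 (adjusted p = 0.00397), a call kept with any 1 sample left out. Abcc10 (MRP7), a lipophilic anion and drug pump, was at 4.67, 4.82 and 4.38 in Torin1 samples, against 5.20, 5.29 and 5.43 in DMSO samples (probe set 17345362, chromosome 17). It fell by 0.68 ± 0.13 (adjusted p = 0.0154), but was not called without DMSO sample 2 or 3 (adjusted p = 0.053 and 0.0655).

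Abcc2 (MRP2), the apical counterpart of Abcc3, was dim, with 3.18, 3.06 and 3.37 in Torin1 samples and 3.51, 3.81 and 4.26 in DMSO samples. The groups did not overlap, and it was not called (adjusted p = 0.0711). It was called lower without DMSO sample 1 (adjusted p = 0.0385) and with an intensity trend in the variance prior (adjusted p = 0.0472). Abcg2, the breast cancer resistance protein, was at 3.41, 3.56 and 3.14 in Torin1 samples, against 4.11, 3.63 and 3.69 in DMSO samples. These groups did not overlap either, and it was not called (adjusted p = 0.139). The P-glycoprotein genes Abcb1a and Abcb1b changed by 0.04 and 0.21 and were not called (adjusted p = 0.882 and 0.693). They and Abcb4, the phosphatidylcholine exporter of bile, are neighbours on chromosome 5, and whether these related genes share signal was not tested. Abcb11, the bile salt export pump, changed by 0.16, and neither bile transporter was called. Of 9 regulators and targets of xenobiotic and oxidant sensing, 1 fell and none rose. That gene, Nfe2l2, which encodes the oxidant-sensing factor NRF2, fell by 0.63 ± 0.13 (adjusted p = 0.0192).

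Cyclic nucleotide exporters were not called. Abcc4 (MRP4) exports cyclic AMP and prostaglandins. Its level was 5.09, 5.11 and 5.06 in Torin1 samples, against 5.20, 5.22 and 5.24 in DMSO samples. The groups were narrow and did not overlap, with SDs of 0.02 in both. The change was -0.13 ± 0.07 (SE; adjusted p = 0.286 in limma), and its 95% interval, -0.29 to 0.02, holds no fall of 2-fold. Abcc5 (MRP5), which exports cyclic GMP, was at 6.03, 6.11 and 5.42 in Torin1 samples, against 5.75, 5.79 and 6.20 in DMSO samples. Torin1 samples 1 and 2 lay within the DMSO range and sample 3 below it, and the change was -0.06 (interval -0.55 to 0.43).

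Around these exporters, 4 of 15 measured genes of cyclic AMP formation and breakdown rose and 1 fell. Pde10a, a phosphodiesterase, rose by 1.63 ± 0.13 and Adcy9, an adenylyl cyclase, fell by 1.63 ± 0.13 (adjusted p = 0.000479 and 0.000549). Smaller rises were called for the phosphodiesterase genes Pde4b, 0.40 ± 0.10, and Pde3a, 0.35 ± 0.08 (adjusted p = 0.0394 and 0.0344). Another phosphodiesterase gene, Pde7b, was lower with no overlap, at -1.57 ± 0.52, and was not called (adjusted p = 0.113). Its Torin1 sample 3, at 7.43, stood above samples 1 and 2, at 5.31 and 5.52. Pde3a encodes the oocyte enzyme that milrinone inhibits, and milrinone was in the medium of both groups.

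Peroxisomal transporters held the largest change. Abcd2 brings very long chain and polyunsaturated acyl-CoA into peroxisomes for oxidation. Its level (probe set 17320652, chromosome 15) was 4.39, 4.86 and 4.91 in Torin1 samples, against 7.92, 7.38 and 7.73 in DMSO samples. Mean intensity was 25.7 in Torin1 samples and 206 in DMSO samples. Every Torin1 sample was more than 2 units below every DMSO sample. The change was -2.96 ± 0.19 (SE; adjusted p = 0.000229 in limma), and it ran from -3.10 to -2.79 with single samples left out, with adjusted p up to 0.00251. Abcd3 (PMP70), which imports branched-chain and bile acid intermediates, was at 5.67, 5.89 and 5.51 in Torin1 samples, against 5.63, 5.64 and 5.77 in DMSO samples. Its values overlapped, with a change of 0.01 (interval -0.25 to 0.28). Of 18 measured genes of peroxisome biogenesis and oxidation, 1 fell and none rose. Pex19, the chaperone of peroxisomal membrane proteins, fell by 0.82 ± 0.09 (adjusted p = 0.00193), and the median of the 18 was -0.13.

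All 3 measured mitochondrial members had changes below 0, and 1 was called. Abcb8, an inner membrane transporter linked to iron export, was at 5.16, 5.28 and 5.13 in Torin1 samples, against 5.51, 5.62 and 5.51 in DMSO samples (probe set 17435311, chromosome 5). It fell by 0.36 ± 0.08 (SE; adjusted p = 0.0279 in limma). Of the 6 leave-outs, the call was kept only without Torin1 sample 2 (adjusted p = 0.0416), and adjusted p reached 0.0914 in the others. It was also lost with an intensity trend in the variance prior (adjusted p = 0.0844). Abcb6, linked to porphyrin transport, was at 5.49, 5.59 and 5.66 in Torin1 samples, against 5.94, 5.86 and 6.26 in DMSO samples. The groups did not overlap, and it was not called, at -0.44 ± 0.12 (adjusted p = 0.0589). Abcb10, which serves haem synthesis, was at 4.66, 5.26 and 4.73 in Torin1 samples, against 5.30, 5.14 and 4.76 in DMSO samples, and overlapped (adjusted p = 0.707).

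Among 18 measured genes of iron-sulfur and haem synthesis 2 rose and 2 fell. Slc25a37 (mitoferrin), the mitochondrial iron importer, and Fdx1, a ferredoxin, rose by 2.42 ± 0.23 and 1.97 ± 0.12 (adjusted p = 0.000974 and 0.000229). Fech, which inserts iron into haem and is known to bind Abcb10, fell by 0.97 ± 0.14 and Uros, an earlier enzyme of that pathway, by 0.29 ± 0.07 (adjusted p = 0.0055 and 0.0498).

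**Figure D3:**
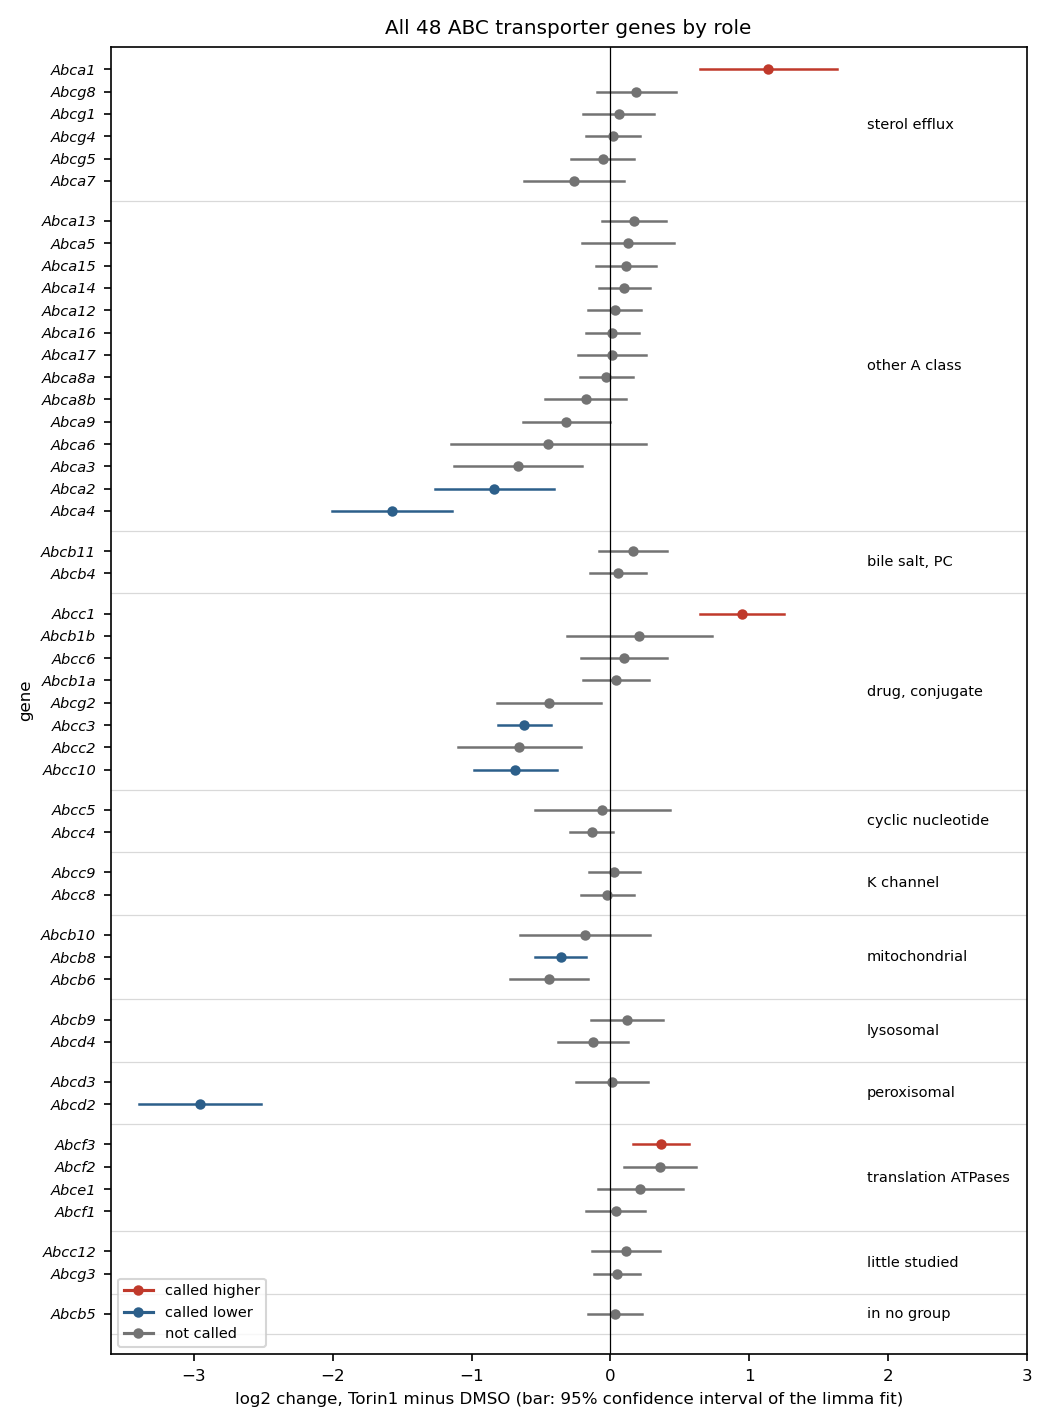
Log2 change (Torin1 minus DMSO, horizontal) of each of the 48 ABC genes with its 95% confidence interval, grouped by role down the page. The points of the 4 translation ATPases are right of 0 and those of the 3 mitochondrial genes left of it, while among sterol exporters Abca1 is at 1.14 and the others lie between -0.26 and 0.19.

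The ribosome and translation ATPases had changes at or above 0.04, with 1 of 4 called. Abcf3, related to the yeast protein Gcn20, which acts in amino acid sensing, was at 7.87, 8.04 and 8.05 in Torin1 samples, against 7.64, 7.54 and 7.69 in DMSO samples (probe set 17323945, chromosome 16). It rose by 0.36 ± 0.08 (SE; adjusted p = 0.0336 in limma), or 1.29-fold. That call was kept only without Torin1 sample 1 (adjusted p = 0.0421), and adjusted p reached 0.106 in the other leave-outs. It was also lost when each array was centred on its median (adjusted p = 0.0904), without the variance shared across genes (0.0903) and with Torin1 samples 2 and 3 averaged (0.0646). Abcf2 had nearly the same change, 0.36 ± 0.11, with no overlap between groups, and was not called (adjusted p = 0.0871). Abce1, which splits ribosomes after termination, was at 7.98, 7.99 and 8.12 in Torin1 samples, against 8.02, 7.54 and 7.87 in DMSO samples. It overlapped between groups, at 0.22 ± 0.13 (adjusted p = 0.395). Abcf1, which binds the initiation factor eIF2, changed by 0.04 (interval -0.17 to 0.25), a sign that turned when 1 sample was left out. Of 7 measured partners in ribosome recycling and initiation, 1 rose. It was Etf1, the release factor that recognises stop codons, at 0.51 ± 0.12 (adjusted p = 0.032).

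The other members showed no call. Abcc8 and Abcc9, the sulfonylurea receptors of ATP-sensitive potassium channels, changed by -0.02 and 0.03, and neither of the pore genes listed with them, Kcnj8 and Kcnj11, was called. Both pore genes were dim. Kcnj8 was higher with Torin1 with no overlap, at 0.47 ± 0.14 (adjusted p = 0.0844 in limma), and Kcnj11 overlapped. The lysosomal Abcd4, a cobalamin transporter, and Abcb9, a peptide transporter, changed by -0.12 and 0.12. Abcc12, Abcg3 and Abcb5 were dim, with changes of 0.11, 0.05 and 0.03. A further 3 ABC genes lie outside the symbol rule. Tap1, a subunit of the peptide transporter of antigen presentation, fell by 0.94 ± 0.09 (SE; adjusted p = 0.0011 in limma), and its partner Tap2 was not called. Cftr, the chloride channel, rose by 0.40 ± 0.08 (adjusted p = 0.022) at a level of 3.41 to 3.56 in Torin1 samples and 2.98 to 3.14 in DMSO samples, below the median gene.

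**Figure D4:**
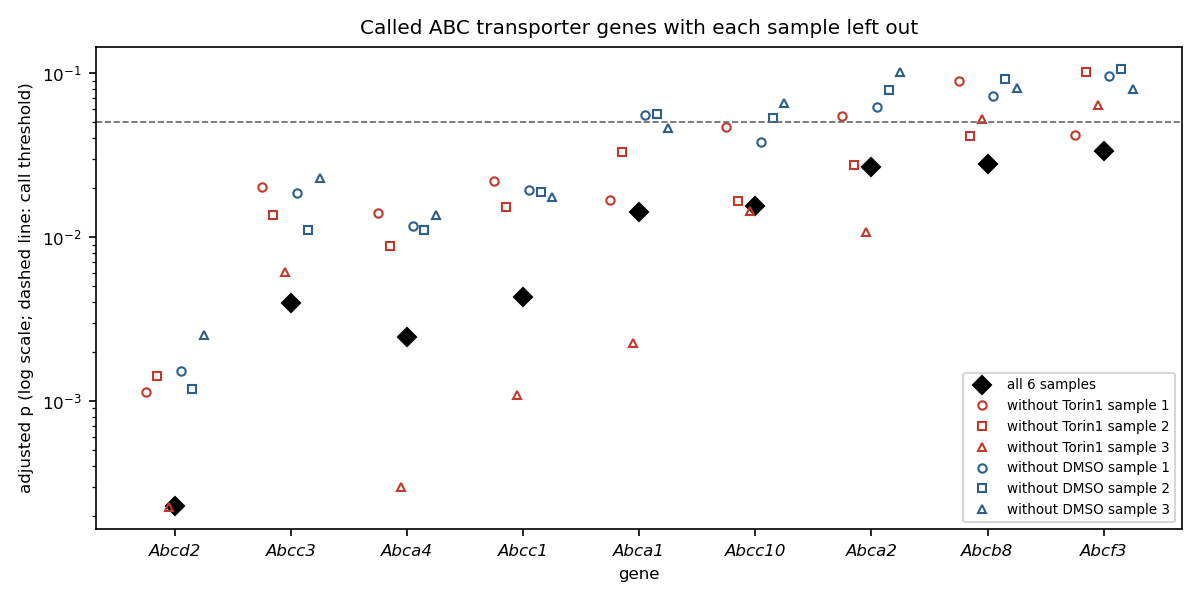
Adjusted p (log scale, vertical) of the 9 called ABC genes with all 6 samples (black) and with each Torin1 sample (red) or DMSO sample (blue) left out. Abcd2, Abcc3, Abca4 and Abcc1 stay below the dashed line at 0.05 throughout, while the other 5 cross it in at least 1 leave-out.

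Leaving out single samples left 4 of the 9 calls in place throughout. These were the falls of Abcd2, Abcc3 and Abca4 and the rise of Abcc1. Only Abcd2 and Abcc3 were called in every alternative. Abca4 and Abcc1 lost the call in an ordinary linear model per gene (adjusted p = 0.055 and 0.0604). Abca1, Abcc10, Abca2, Abcb8 and Abcf3 each lost the call in 2 to 5 of the 6 leave-outs. No called gene changed sign in any of the 17 alternatives run.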

How the data were processed

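RNA from 3 Torin1 and 3 DMSO samples, grouped by title, was amplified with the NuGEN Ovation Pico WTA system, per the labels' protocols. For the authors' deposited intensities, 1 per probe set and array, the tools named are RMA, Affymetrix Expression Console 1.1 and GCOS, per the submitters' processing notes. Further settings were not given in the sources used here. Intensities are relative to the other transcripts of an array, so a shift in total RNA per sample would not show. Values were linear, from 2.25 to 3268 with array medians of 11.1 to 11.97, and no per-probe background was used.

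Of 41345 probe sets, 23521 named 1 gene in the platform's table, 1814 several and 16010 were unnamed here. The brightest probe set stood for the 1082 genes with several; each ABC gene had 1. Log2(intensity + 1) of all 22180 genes, unfiltered, entered a two-sided limma fit (limma 3.58.1, R 4.3.3; lmFit, then eBayes) on treatment alone, after a test on simulated data. The number of arrays limits the precision.

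Members, role groups and lists were chosen with earlier results of these data known, so lists are described by counts and medians with no test. Named were all called members, all sterol, cyclic nucleotide, mitochondrial and peroxisomal members, the largest change of each other role group, and up to 4 called genes per list. Abca3, Abca6, Abcc2, Abcf2, Abce1, Abcb1a, Abcb1b, Abcb4, Abcg2, Abca5, Abcf1, Abcb9, Abcc8, Abcg3, Abcb5, Tap2 and the gene clusters were added after their values were seen. So were the uncalled Abca9, Lpcat3, Mylip, Srebf1, Nr1h3, Apoe, Stard4, Nceh1, Npc1, Pde7b, Kcnj8 and Kcnj11. The DR4 match with mismatches was set from the Abca1 sequence. The erythroid markers had no measured member. Torin1 sample 3 shares a short name with sample 2 in its description, so averaging both was 1 alternative.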

Additional observations from a re-analysis of the deposited data

How the results depend on the processing

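Of the 17 alternatives, the pseudocount (16 or none), the filter on dim genes, quantile normalization, median centring, the intensity trend, the choice of probe set and averaging Torin1 samples 2 and 3 gave 2 to 3 higher and 6 to 8 lower ABC genes, not always the same ones. With the intensity trend Abcb8 was lost (adjusted p = 0.0844) and Abcc2 was called lower (0.0472). With Torin1 samples 2 and 3 averaged Abcf3 was lost (0.0646) and Abca3 was called lower (0.0356), and with median centring Abcf3 was lost (0.0904). Without the variance shared across genes, in an ordinary linear model per gene, 0 ABC genes were called higher (4 at an unadjusted p below 0.05). In that model 2 were called lower, Abcd2 and Abcc3, and 353 and 423 of all genes were called higher and lower. For Abca1, Abcc1 and Abca4 adjusted p was then 0.119, 0.0604 and 0.055. For Abca2, Abcc10 and Abcb8 it was 0.154, 0.103 and 0.0664. With the replicate number as a block, 2 ABC genes were called higher (Abcf3 was lost, adjusted p = 0.109) and 3 lower (Abca2, Abcc10 and Abcb8 were lost, at 0.0789, 0.0608 and 0.0865), and 657 and 908 of all genes were called higher and lower. The labels share only a number between groups: same-numbered samples deviated with correlations of -0.207, -0.300 and -0.148, and no sample correlated best with its own number. Leaving out 1 sample gave 1 to 3 higher and 3 to 6 lower ABC genes, and 655 to 1389 higher and 844 to 1694 lower of all genes. Abca3 and Abcb6 were called lower with the filter on dim genes (adjusted p = 0.0445 and 0.0437) and with quantile normalization (0.0431 and 0.0421). Signs turned only for uncalled genes. With median centring Abcd3, Abcc9 and Abcg4 were at -0.0242, -0.00819 and -0.0193, and with quantile normalization Abcc9 and Abcg4 at -0.00993 and -0.0149. In the leave-outs Abcb1b ran from -0.0174 to 0.39, Abcc5 from -0.186 to 0.159, Abcc9 from -0.0122 to 0.0714, Abcd3 from -0.0881 to 0.102, Abcg1 from -0.00447 to 0.149 and Abcg4 from -0.0478 to 0.0534. The cause of these shifts was not tested. For the 23 ABC genes at or below the median gene, low signal limits what a fold change can show.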
